A study of Mus musculus with 2 samples.

Results

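The cells described here are the pericytes and smooth muscle cells, together called mural cells, of orthotopic mouse pancreatic tumours. They were picked from 2 single-cell RNA libraries by their transcripts. A barcode was a member if it held at least 500 genes, at most 15% mitochondrial UMIs and at least 3 UMIs of Rgs5, Notch3 and Myh11 together. It also had to hold no Ptprc, no Pecam1 or Cdh5, at most 1 Pdgfra UMI and at most 10 UMIs of Krt8, Krt18 and Krt19 together. A UMI is a tagged copy of a transcript, counted once. The rule found 61 members among 22472 barcodes that passed the gene and mitochondrial limits (26017 barcodes in all), 49 of them control cells and 12 knockout cells. The levels of the 10 genes named in the rule are therefore given as description.

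Each library pooled the tumours of 5 mice, taken on day 21 after KPC pancreatic cancer cells had been placed in the pancreas. The knockout mice carried Csf1r-Cre together with Porcn fl/fl, and the controls were littermates with Porcn fl/fl and no Cre. PORCN is the enzyme that lipid-modifies Wnt ligands before they are secreted. Because Cre was driven by the Csf1r promoter, the deletion was aimed at macrophages and related myeloid cells, not at the mural cells. Tumours of both groups were digested for 30 min at 37 °C in collagenase V (1.5 mg/mL) with 0.1 mg/mL of DNase I, red cells were lysed and viable cells enriched. With 1 library per group the mice cannot be told apart, no difference between genotypes has a replicate check, and the intervals below cover counting error only.

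Pericytes are embedded in the basement membrane of capillaries and small venules, where they receive platelet-derived growth factor from the endothelium through PDGFRB. Smooth muscle cells wrap arterioles and larger vessels and contract through actin, smooth muscle myosin and their regulators. Both depend on NOTCH3, which is activated by Jagged ligands on neighbouring cells, and both adjust vessel width in response to endothelin, angiotensin, catecholamines and nitric oxide.

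The contractile genes are shown first by sequence, because their levels varied together from cell to cell. Serum response factor is known to bind the CArG box in such genes, and the NOTCH partner RBPJ is known to bind TGGGAA, read TTCCCA on the other strand. Promoters of 300 bases, from 250 before to 50 after the gene start, were taken from RefSeq on GRCm38.p6 and searched on both strands. The CArG box was counted as an exact match only. Capitals mark the CArG box in Myl9 (chr2:156775214-156775513, plus strand), and TGGGAA or TTCCCA in Acta2 (chr19:34255324-34255623, minus strand) and in Hey2 (chr10:30842734-30843033, minus strand).
Myl9: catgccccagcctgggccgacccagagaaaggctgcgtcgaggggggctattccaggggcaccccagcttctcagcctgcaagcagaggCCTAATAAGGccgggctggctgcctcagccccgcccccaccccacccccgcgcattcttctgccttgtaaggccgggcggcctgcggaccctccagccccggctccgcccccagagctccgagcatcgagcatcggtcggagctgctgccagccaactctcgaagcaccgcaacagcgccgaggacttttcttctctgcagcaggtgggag
Acta2: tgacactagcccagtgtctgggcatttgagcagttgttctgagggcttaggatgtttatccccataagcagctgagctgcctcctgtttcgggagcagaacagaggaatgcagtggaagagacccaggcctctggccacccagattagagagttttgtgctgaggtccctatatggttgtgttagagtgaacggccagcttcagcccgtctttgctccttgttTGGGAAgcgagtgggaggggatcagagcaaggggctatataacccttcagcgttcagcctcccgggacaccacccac
Hey2: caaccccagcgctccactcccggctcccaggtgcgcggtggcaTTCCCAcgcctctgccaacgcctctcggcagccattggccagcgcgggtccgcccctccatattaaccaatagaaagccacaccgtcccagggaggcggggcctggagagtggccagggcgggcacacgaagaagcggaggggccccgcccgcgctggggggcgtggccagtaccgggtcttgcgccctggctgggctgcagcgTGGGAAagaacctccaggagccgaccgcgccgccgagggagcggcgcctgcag
The CArG box in Myl9, which encodes the regulatory light chain of smooth muscle myosin, began at position -161 from the gene start. The match in Acta2, smooth muscle alpha-actin, began at -27, and the first of 2 in Hey2, a transcriptional repressor induced by Notch, at -207. A CArG box was found in 535 of 32851 RefSeq promoters of this length (1.63%) and TGGGAA or TTCCCA in 8397 (25.6%). Among the 23 contractile-list genes with a promoter in the table, 4 held an exact CArG box (Acta1, Actc1, Myl6 and Myl9) and 8 held TGGGAA or TTCCCA (34.8%). Acta1 and Actc1 had no UMI in any member. In the pericyte list none of 12 promoters held an exact CArG box and 7 held TGGGAA or TTCCCA (58.3%). With 1 mismatch to the CArG box allowed, an alternative chosen after seeing the data, 12 of the 23 contractile promoters (52.2%) and 6936 of all promoters (21.1%) had a match. In Acta2 such letters began at -84 (ccctatatgg) and at -34 (ccttgtttgg), and the latter overlap the capitals. No match in this window says whether a factor binds there.

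The members divided at once into 56 cells that each held both Rgs5 and Notch3, and 5 cells (2 control, 3 knockout) that held neither and had entered by Myh11 alone. In the 56 cells Rgs5, a regulator of G protein signalling and a standard pericyte marker, ran from 12.8 to 344 UMIs per 10000 UMIs of the cell, with a median of 86.5. Notch3 ran from 3.27 to 26.4 per 10000 with a median of 11.6. Myh11, smooth muscle myosin heavy chain, ran from 0 to 87.9 with a median of 7.58 and was present in 51 of the 56. Pdgfrb, which the rule did not use, was present in 51 of them, with a median of 7.50 per 10000 and a highest value of 26.4.

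The 5 cells with Myh11 alone did not carry the mural programme. They held 3 to 9 Myh11 UMIs each but no Acta2, Higd1b, Cspg4, Kcnj8 or Abcc9, and 13 of the 19 genes of the pericyte list were at 0 over all 5. Col1a1, a chain of type I collagen, reached 16 to 459 UMIs per cell in them, and they held 957 of the 1230 Col1a1 UMIs of all 61 members. The 13 fibroblast markers summed to 66924 UMIs per 1000000 (CPM) in these 5 cells, against 44030 in 734 reference fibroblasts and 4762 in the other 56 members. The fibroblast markers go against the mural label in these 5 cells, which are called the cells with Myh11 alone, and results are given with and without them where they bear on the value.

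**Figure D1:**
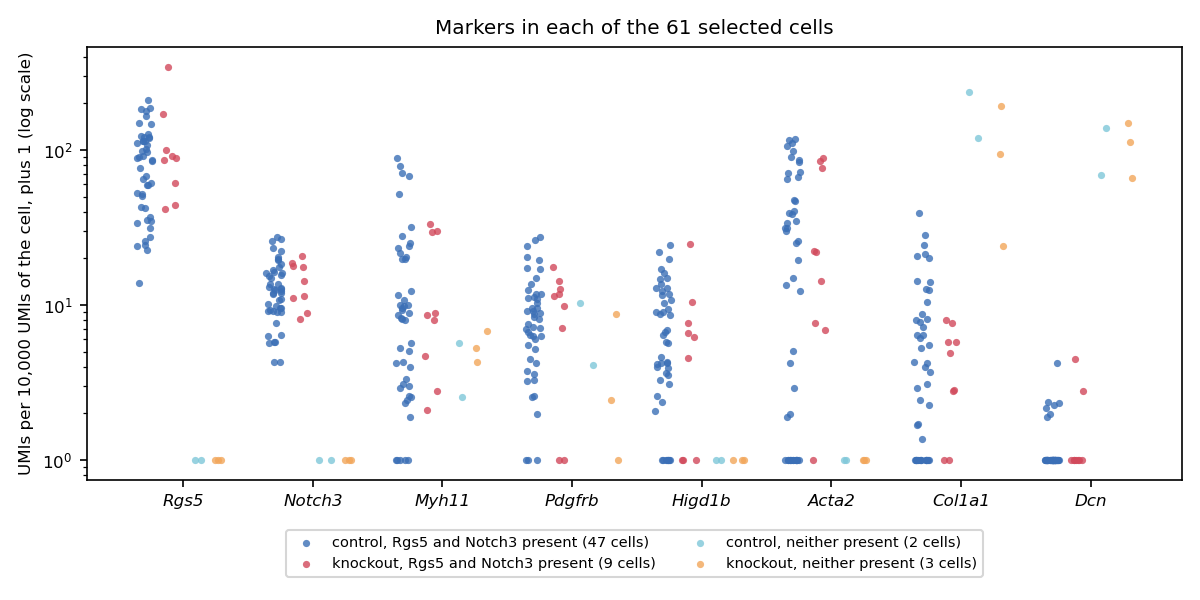
UMIs of 8 genes per 10000 UMIs of each cell, plus 1, on a log axis, with 1 point per cell in 4 sets (control and knockout cells with Rgs5 and Notch3, and the 5 cells with neither). The 56 cells hold Rgs5 and Notch3 with little Dcn, and the 5 cells hold Col1a1 and Dcn with no Acta2 or Higd1b.

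At the edge of the rule, 1 control and 2 knockout members held exactly 3 marker UMIs, all of them Myh11, while 3 control and 9 knockout barcodes that met every other condition held 2. The keratin limit removed the most candidates: 24 control and 13 knockout barcodes failed on keratins only. The 24 control barcodes held 570 Rgs5 UMIs, 64 Notch3 UMIs and 82 Higd1b UMIs, whereas the 13 knockout barcodes held 91 Rgs5 UMIs and no Notch3 or Higd1b. The Pdgfra limit alone removed 7 control and 6 knockout barcodes, the endothelial limit alone 2 control barcodes and the Ptprc limit alone 1.

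Members were shallower than tumour cells and fibroblasts. Their median depth was 6835 UMIs in control (1248 to 28185) and 7293 in knockout (2876 to 10535), against 15356 in 13025 reference tumour cells and 10727.5 in the reference fibroblasts. The 64 reference endothelial cells had a median of 4101.5 UMIs and 2699 reference leukocytes 3613. The libraries shared 46 barcodes, none of them a member, and none of the 148 control and 341 knockout barcodes called doublets was a member.

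By Myh11 against Rgs5, 53 members held more Rgs5 and 8 more Myh11. The 8 were the 5 cells with Myh11 alone and 3 control cells that also held Rgs5 and Notch3. These 3 cells held 47 to 90 Myh11 UMIs and 43 to 68 Acta2 UMIs each, 7982 and 6701 CPM together, with no Kcnj8, Abcc9, Col1a1 or Postn UMI. In the 53 cells Myh11 stood at 1271 CPM and Acta2 at 4011 CPM. With 3 such cells the end of the set with more Myh11 than Rgs5 is thinly sampled, and the knockout library held none. Knockout cells were still found among those with high Acta2. In the order by Acta2 given below, 3 knockout cells lay in the highest group, 5 in the middle and 1 in the lowest. The 3 in the highest group held 41 to 83 Acta2 UMIs and 2 to 32 Myh11 UMIs each, with no Kcnj8 or Abcc9 UMI.

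The label held in the 56 cells against genes outside the rule. Higd1b, a mitochondrial protein gene typical of pericytes, had a UMI in 45 of 56 cells but in 1 of 734 fibroblasts, 0 of 64 endothelial cells and 11 of 13025 tumour cells. A count of 0 of 64 allows a share of up to 4.69% on a limit of 3 counts, and the exact 95% interval reaches 5.60%. Pdgfrb was in 51 of 56 cells and also in 63.8% of fibroblasts, the one other population with a high share. Acta2 was in 41 of 56 cells, 16.1% of fibroblasts and 2.61% of tumour cells. Rgs5 itself, a gene of the rule, had a UMI in 0.954% of fibroblasts, 0.729% of tumour cells and 1 of 2699 leukocytes. The 24 control barcodes that failed on keratins only are among these tumour cells, with 570 Rgs5 and 82 Higd1b UMIs. So are the 13 such knockout barcodes, with 91 Rgs5 UMIs and no Higd1b.

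Porcn itself was scarce: 4 UMIs in the 49 control members and none in the 12 knockout members, and 6 UMIs in the reference leukocytes of each library, too few to check the deletion. Csf1r, whose promoter drove Cre, had no UMI in any member, against 297 and 563 UMIs in control and knockout leukocytes.

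Markers of other cell types in the 56 cells were few, in part by the rule. It set Ptprc, Pecam1 and Cdh5 to 0 and capped Krt8, Krt18 and Krt19. The reference tumour and endothelial cells were picked by high keratins or by Pecam1 and Cdh5, so the sums below are description only. Of the 11 leukocyte markers 8 were at 0 and the list held 3 UMIs, all in knockout cells. The 7 mesothelial markers held 5 UMIs, the 8 Schwann cell markers 8 UMIs and the 7 acinar markers 7 UMIs. The 10 epithelial markers held 58 UMIs, or 135 CPM summed against 6706 in tumour cells, with Epcam, Krt7, Cldn4 and Cldn7 at 0. The 12 endothelial markers summed to 661 CPM against 9212 in endothelial cells. Pecam1, Cdh5, Tie1, Vwf and Cldn5 were at 0, and most of the sum came from Flt1, a VEGF receptor, at 378 CPM and Esam, an adhesion molecule, at 218 CPM.

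Pericyte genes were far above their level in fibroblasts. Levels were summed over cells and scaled to CPM, a measure that counts the 3′ ends of transcripts and is used to compare 1 gene across cells, not genes with each other. Of 19 genes on the pericyte list 18 had at least 20 UMIs, and 16 of them were at least 2-fold higher in the 61 members than in fibroblasts, none 2-fold lower. Over all 4456 genes tested 16.6% were at least 2-fold higher and 4.51% at least 2-fold lower. The list's median log2 ratio was 4.72, and 4.90 in the 56 cells, against 0.34 over all genes. Against endothelial cells 17 of the 18 pericyte genes and 22 of 23 tested contractile genes were at least 2-fold higher, where 20.3% of all genes were higher and 5.88% lower. These genes come from the cells the rule picked, so the ratios describe the cells and carry no test.

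Among the pericyte genes, Higd1b stood at 749 CPM in the 56 cells and 0.110 CPM in fibroblasts. Cox4i2, an oxygen-responsive subunit of cytochrome oxidase, stood at 230 CPM and 0.219 CPM, and Ndufa4l2, another hypoxia-linked mitochondrial gene, at 650 CPM and 58.7 CPM. Cspg4, the NG2 proteoglycan, reached 206 CPM against 1.87 CPM, but only 29 of the 56 cells held a UMI of it. Kcnj8 and Abcc9, which together form the vascular ATP-sensitive potassium channel, reached 264 and 494 CPM against 8.67 and 19.4 CPM. Mcam, the adhesion molecule CD146, was at 431 CPM in the 56 cells and 0.439 in fibroblasts, but was also high in endothelial cells at 255 CPM. The list was not uniform: Cd248, endosialin, was at 274 CPM in the 56 cells and 372 in fibroblasts, and Steap4, a metalloreductase, at 176 and 143.

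The 10 genes with the highest ratio of members to fibroblasts, among genes outside the rule found in at least 25% of members, were Higd1b, Gja4, Olfr558, Fhl5, Dgkb, Trpc6, Kcnk3, Ednrb, Mcam and Cox4i2. Gja4, a connexin of vascular gap junctions, had no UMI in fibroblasts and was at least 516-fold higher in members, counting 3 UMIs over all fibroblasts as the floor. On the same floor Olfr558, an olfactory-type receptor, was at least 491-fold higher and Fhl5, a LIM-domain protein, at least 430-fold. Trpc6, a cation channel, had 159 UMIs in members and 2 in fibroblasts, a ratio of 1465 with a counting interval of 399 to 12199. Ednrb, an endothelin receptor, separated members from fibroblasts but not from the endothelium, where it stood at 145 CPM against 162 CPM in members.

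Contractile genes were higher as a group than in fibroblasts. Of 28 genes 23 had at least 20 UMIs. In members 22 of them were at least 2-fold higher and none 2-fold lower, against 16.6% and 4.51% of all genes tested. The list's median log2 ratio was 4.92 (5.12 in the 56 cells). Acta2 was at 4157 CPM in the 56 cells and 71.8 CPM in fibroblasts. Tagln, the actin-binding protein transgelin, was at 3206 and 66.2 CPM, and Myl9 at 1452 and 8.45 CPM. Des, the intermediate filament desmin, was at 766 and 21.9 CPM. Lmod1, which nucleates actin filaments in smooth muscle, was at 339 and 0.878 CPM. Acta1 and Actc1, the skeletal and cardiac actins, were at 0 in all 61 members.

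Genes that relay vessel tone followed the same direction. Of 32 receptor genes 12 had at least 20 UMIs. All 12 were at least 2-fold higher in members than in fibroblasts, against 16.6% of all genes tested, with a median log2 ratio of 3.35. Against endothelial cells 10 were at least 2-fold higher and 1 lower, where 20.3% and 5.88% of all genes were. Ednra, the endothelin A receptor, was at 427 CPM in the 56 cells and 32.8 in fibroblasts. Gucy1a1 and Gucy1b1, the subunits of the nitric oxide receptor, were at 494 and 399 CPM against 6.15 and 3.07. Adra2a, an adrenergic receptor, was at 146 CPM against 0.329. Downstream, Prkg1, the cGMP-dependent kinase, was at 1603 CPM against 198, and Mylk, myosin light chain kinase, at 1930 CPM against 84.8. Cacna1c, the pore of the L-type calcium channel, was at 680 CPM against 33.9. Of 14 tested channel genes 11 were at least 2-fold higher in members and 1 lower, against 16.6% and 4.51% of all genes tested.

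Most tested Notch genes were higher than in fibroblasts, but the list was mixed against endothelial cells. Of 24 Notch genes besides Notch3, 11 were tested. In members 7 were at least 2-fold higher than in fibroblasts and none 2-fold lower, against 16.6% and 4.51% of all genes tested. In the 56 cells 7 were higher and 1 lower, where 769 and 160 of 3959 genes were. Against endothelial cells 4 were at least 2-fold higher in members and 3 lower, where 20.3% and 5.88% of all genes were. Hey2 was at 99.8 CPM in the 56 cells and 0.110 in fibroblasts, Heyl, a related repressor, at 64.95 and 1.65, and Nrarp, a feedback inhibitor of Notch, at 71.9 and 0.110. Jag1, a Notch ligand, was at 144 CPM against 29.5 in fibroblasts and 35.7 in endothelial cells. Rbpj and Notch2 were lower in the 56 cells, at 62.6 and 37.1 CPM against 133 and 53.6. Of the mural transcription factors Tbx2 was at 209 CPM against 6.69, and Myocd, the smooth muscle coactivator, at 51.0 against 0.110.

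**Figure D2:**
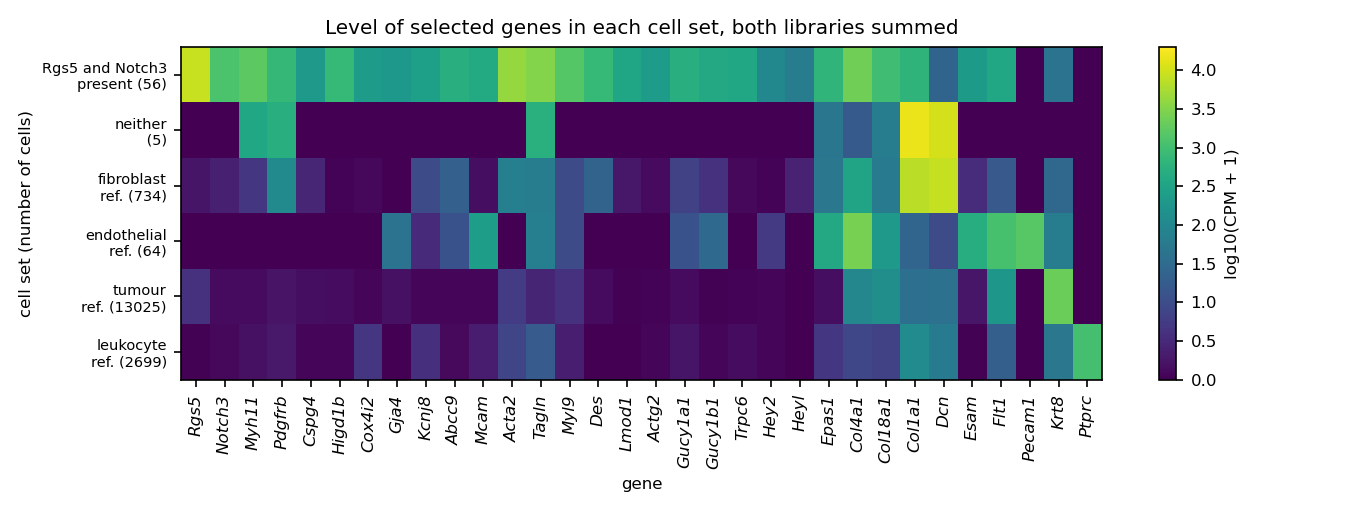
Level of 32 genes as log10(CPM + 1), by colour, in the 56 cells with Rgs5 and Notch3, the 5 cells with neither and 4 reference populations, both libraries summed. Higd1b, Acta2 and Trpc6 are brightest in the top row, Col4a1 is as bright in endothelial cells, and the 5 cells share Col1a1 and Dcn with fibroblasts.

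Matrix genes were mixed on both the basement membrane list and the fibrillar list. Col4a1, a chain of basement membrane collagen, was at 2299 CPM in the 56 cells, close to the 2636 CPM of endothelial cells and above the 328 CPM of fibroblasts. Col18a1, another vascular basement membrane collagen, was at 974 CPM against 210 and 61.5. Lama4, a laminin chain, was at 172 CPM against 236 in fibroblasts and Nid1, nidogen, at 281 against 601. Of the 14 tested basement membrane genes 6 were at least 2-fold higher in members than in fibroblasts and 3 lower, against 16.6% and 4.51% of all genes tested, and the median log2 ratio was -0.30. In the 56 cells 6 were higher and 5 lower, where 769 and 160 of all 3959 genes tested were. Of 30 tested genes of the fibrillar matrix list 6 were at least 2-fold higher in members and 10 lower. Their median log2 ratio was -0.33, and of all genes tested 16.6% were higher and 4.51% lower. Among the genes of that list, Col1a1 was at 633 CPM in the 56 cells against 7130 in fibroblasts and Col3a1 at 2232 against 13146. Dcn, decorin, was at 23.2 against 8464. Sparcl1 and Serpine2 went the other way, at 2925 and 1199 CPM against 173 and 149. Cell-adhesion genes included Itga1, a collagen receptor, at 784 CPM against 71.6, and Itga7, a laminin receptor, at 146 against 1.10.

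Of 23 genes of vessel recruitment signalling 14 were tested. In members 6 of them were at least 2-fold higher than in fibroblasts and 2 lower, against 16.6% and 4.51% of all genes tested. Pdgfa, a platelet-derived growth factor, was at 585 CPM in the 56 cells against 40.6 in fibroblasts, and Il34, a ligand of the macrophage receptor CSF1R, at 223 against 12.3. Of 46 Wnt pathway genes only 12 had 20 UMIs in members, 2 at least 2-fold higher and 4 at least 2-fold lower than in fibroblasts, against 16.6% and 4.51% of all genes tested. Fzd4, a Wnt receptor, was at 118 CPM against 36.3. Sfrp1 and Sfrp2, secreted Wnt inhibitors, were at 2.32 and 0 CPM in the 56 cells against 723 and 719 in fibroblasts. Cycling transcripts were nearly absent: Mki67 had 0 UMIs in 61 cells, Top2a 2 and Cdk1 4. On a limit of 3 counts, 0 of 61 allows a share of cells with a Mki67 UMI of up to 4.92%.

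The 56 cells were ordered by Acta2. It ran from 0 to 116 UMIs per 10000, with none in 15 cells. Cut into 3 groups of near-equal size, a division chosen after the values were seen, the 19 highest cells held 38.4 to 116 per 10000, the middle 18 held 4.06 to 37.6 and the lowest 19 held 0 to 3.23. The groups are ranges, not cell types: the cell at the foot of the top group and the cell at the head of the middle group differed by less than 1 UMI per 10000. Median depth was lower with lower Acta2, 8456 UMIs in the top group and 5185 in the bottom group, and its part in what follows was not tested. Rgs5 and Notch3 did not rise or fall steadily with Acta2. Rgs5 was at 7613 CPM in the top group, 10709 in the middle and 6973 in the bottom. Notch3 was at 1236, 1118 and 1298 CPM.

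With Acta2, 17 of 21 tested contractile genes were at least 2-fold higher in the top than in the bottom group, with a median log2 ratio of 2.48. Over all 1699 genes tested 10.1% were at least 2-fold higher, 11.3% at least 2-fold lower, and the median was 0.01. Tagln was at 7201 CPM in the top group, 790 in the middle and 210 in the bottom. Myl9 went from 2774 to 851 to 192 CPM, and Tpm2, a tropomyosin, from 3006 to 938 to 210. Actg2, the enteric smooth muscle actin, had 84 UMIs in 7 cells of the top group and none in the bottom group, at least 17.8-fold higher on a floor of 3 UMIs over the group. The top group was not uniform in this gene. Its cells with 6 to 26 Actg2 UMIs held 6 to 51 Col1a1 UMIs each and no Cspg4. The other cells with Actg2 held 3 and 1 UMIs of it, 1 and 0 of Col1a1 and 2 and 4 of Cspg4. Col1a1 and Cspg4 were each found in 11 top cells, so neither was confined to cells with Actg2. Whether these are separate kinds of cell was not tested. Hey2 was at 186 CPM in the top and 9.14 in the bottom group. Fbxl22, an F-box protein of muscle, had 45 UMIs in 13 top cells and none in the bottom.

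Most of the tone receptors tested were higher at the low end of Acta2, as were the potassium channel genes Abcc9 and Kcnj8. The channel genes as a list were mixed. Over all 1699 genes tested 10.1% were at least 2-fold higher in the top group and 11.3% at least 2-fold lower. Of 11 tested channel and calcium-handling genes 3 were at least 2-fold lower in the top group (Abcc9, Kcnj8 and Trpc6) and 2 higher (Kcnab1 and Cacnb2), with a median log2 ratio of -0.66. Kcnab1, a potassium channel subunit, was at 545 CPM in the top and 36.6 in the bottom group, and Cacnb2, a calcium channel subunit, at 383 against 82.2. Abcc9 was at 139 CPM in the top, 435 in the middle and 1133 in the bottom group, and its partner Kcnj8 at 75.4, 295 and 521. Steap4 had 1 UMI in the top group and 42 in the bottom. Of 10 tested tone receptors 6 were at least 2-fold lower in the top group and none higher, against 11.3% and 10.1% of all genes. Their median log2 ratio was -1.31. Ednrb was at 52.2 CPM in the top group against 384 in the bottom, Agtr1a, an angiotensin receptor, at 40.6 against 228 and Ednra at 250 against 740. Pdgfrb was at 482 CPM in the top and 1051 in the bottom group. Gucy1a1 and Gucy1b1 did not follow the order, at 482 and 354 CPM against 530 and 393. The pericyte list was mixed, with 3 of 16 tested genes at least 2-fold higher in the top group (Rgs4, Mcam and Cspg4) and 5 lower (Steap4, Abcc9, Kcnj8, Ednra and Pdgfrb).

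The same order was read in each library. The 20 genes that were highest and the 20 that were lowest with Acta2 were chosen in the control cells alone, by their 15 highest and 15 lowest cells. The 9 knockout cells were then split by Acta2 into 4 upper and 5 lower cells. Of the 17 highest genes with at least 5 UMIs in knockout cells 15 were higher in the upper knockout cells, as were 2 of 19 lowest genes, against 51.8% of 1280 genes. In the knockout cells the median log2 ratio was 2.34 for the former and -1.59 for the latter. Abcc9 held 38 UMIs and Kcnj8 29 in the lower knockout cells and none in the upper ones.

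**Figure D3:**
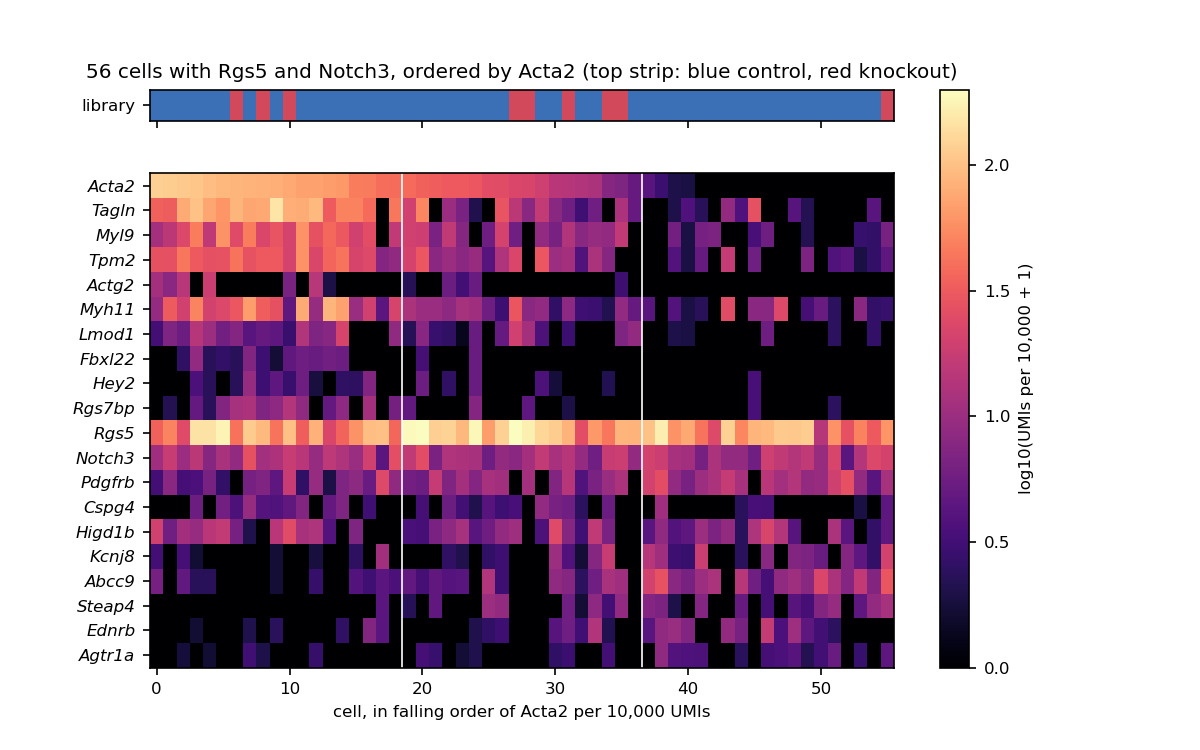
Level of 20 genes as log10(UMIs per 10000 + 1), by colour, in the 56 cells in falling order of Acta2, with white lines between the 3 groups and a strip above for the library. Tagln, Myl9 and Tpm2 fade to the right, Abcc9, Kcnj8 and Steap4 fade to the left, and Rgs5 and Notch3 are present throughout.

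Mural cells made up a smaller share of the knockout library. The 49 control members were 0.420% of 11664 barcodes (exact 95% interval 0.311 to 0.555) and the 12 knockout members 0.111% of 10808 (0.0574 to 0.194), a ratio of 0.264 (0.128 to 0.504). Without the 5 cells with Myh11 alone the counts were 47 and 9 and the ratio 0.207 (0.0890 to 0.427). The choice of denominator moved the size. Per reference fibroblast the ratio was 0.191 (0.0927 to 0.365), and per reference endothelial cell it was 0.501 (0.243 to 0.957). The reference endothelial cells numbered 43 in control and 21 in knockout. At a marker limit of 2 UMIs in place of 3 the ratio per kept barcode was 0.436 (0.249 to 0.736). The 9 knockout barcodes added by that limit held 915 Dcn and 4 Rgs5 UMIs, and the 3 control barcodes 76 and 6. Digestion and enrichment set which cells reach a library, and with 1 pooled library per genotype their part cannot be told apart from that of the genotype.

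**Figure D4:**
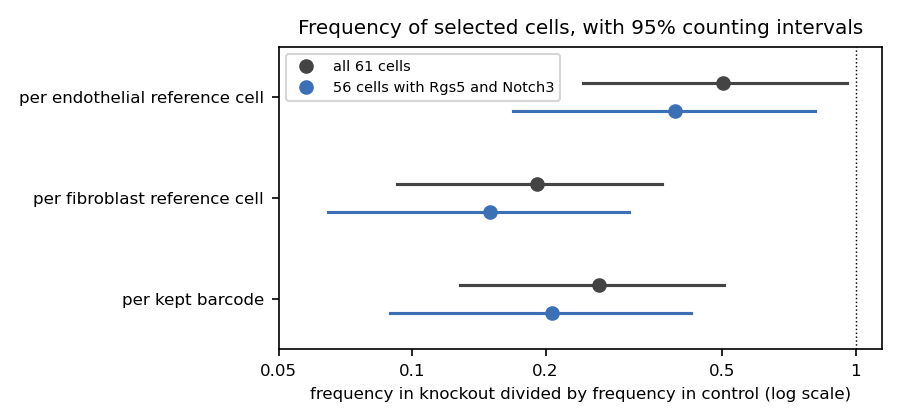
Frequency of the selected cells in the knockout library divided by that in the control library, on a log axis, per kept barcode, per reference fibroblast and per reference endothelial cell, with exact 95% counting intervals. All 6 ratios lie below 1, from 0.150 to 0.501.

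Within the members the medians of the pericyte and contractile lists differed by less than 2-fold between the libraries, but single genes ranged more widely. In the 56 cells the log2 ratios of knockout to control ran from -1.35 to 2.38 for pericyte genes and from -2.38 to 0.60 for contractile genes. In the 56 cells Rgs5 ran from 12.8 to 210 per 10000 in control with a median of 85.3, and from 40.6 to 344 in knockout with a median of 88.0. Acta2 had a median of 24.0 per 10000 in control, with a highest value of 116, and 20.9 in knockout, with a highest value of 87.8. The libraries overlapped for both genes. The median log2 ratio of knockout to control in the 56 cells was 0.38 over 18 pericyte genes and -0.14 over 23 contractile genes, against 0.14 over all 3959 genes tested. Of the pericyte genes 4 were at least 2-fold higher and 1 lower, and of the contractile genes 0 were higher and 2 lower, where 9.3% and 6.39% of all genes were. Over all 61 members the medians were 0.07 and -0.44, against 0.10 over 4456 genes, of which 7.7% were at least 2-fold higher and 6.28% lower. The lower contractile value includes the 5 cells, which make up 3 of 12 knockout and 2 of 49 control members.

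Postn, periostin, a matrix protein, had the most control UMIs of the 8 genes with the lowest knockout to control ratio in the 56 cells. It had 302 UMIs in 30 of 47 control cells, where it ran from 0 to 41.6 per 10000 with a median of 2.32, and 5 UMIs in 2 of 9 knockout cells, where the highest value was 5.35. Its level was 814 CPM in control and 83.0 CPM in knockout, a log2 ratio of -3.04 (-4.93 to -2.06). The 4 control cells with the most, 35 to 55 UMIs each, held 174 of the 302 (57.6%), and all 4 also had Actg2 and Col1a1 UMIs. In fibroblasts Postn was at 895 CPM in control and 589 in knockout. Tnc, tenascin C, had 46 UMIs in 12 control cells and none in the knockout cells, at least 2.49-fold lower on a floor of 3 UMIs over the 9 cells, and in fibroblasts it was at 273 and 64.1 CPM. Over all matrix genes 7 of 27 tested were at least 2-fold lower in knockout than in control among the 56 cells, and 1 was higher, with a median log2 ratio of -0.25, against 6.39% lower and 9.3% higher of all genes tested there. Over all 61 members 4 of 30 tested matrix genes were at least 2-fold higher and 3 lower. Their median was 0.09, and of all genes tested there 7.7% were higher and 6.28% lower.

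The genes with the largest differences over all 61 members mostly followed single cells or the 5 cells with Myh11 alone. By the naming rule the 8 highest in knockout were Cxcl12, C3, Cxcl9, Cpxm1, Naaladl2, Mir99ahg, Cd36 and Celf2. C3, complement component 3, had 140 knockout UMIs, none of them in a cell with Rgs5. Cxcl12, a chemokine, had 61, of which 88.5% lay in 1 cell, and Cxcl9, an interferon-induced chemokine, had 19, all in 1 cell. Cd36, a fatty acid transporter, had 12 UMIs in 3 knockout cells, 83.3% of them in 1 cell. The lowest included 4930542D17Rik, Tnc, Csmd1, Pi15, Ccn3, Cthrc1 and Nav2, each with no knockout UMI. Pi15, a peptidase inhibitor, had 45 UMIs in 14 control cells and Nav2, a neuron navigator protein, 37 in 16, whereas the 48 UMIs of 4930542D17Rik lay in 1 cell. On a floor of 3 UMIs over the knockout members Pi15 was at least 3.11-fold lower and Nav2 at least 2.56-fold lower.

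Interferon-induced genes varied, and some had most of their UMIs in 1 cell. Of 15 tested in the 56 cells 4 were at least 2-fold higher in knockout and 1 lower, against 9.3% and 6.39% of all genes tested, with a median log2 ratio of 0.61. Over all 61 members 3 of 15 were higher and 1 lower, against 7.7% and 6.28% of all genes tested. Their median was 0.37. Iigp1, an interferon-induced GTPase, was at 388 CPM in control and 1244 in knockout, but 69.3% of its 75 knockout UMIs lay in 1 cell. Its median was 1.18 per 10000 in control and 4.74 in knockout, and the ranges overlapped. Ifit3 had 46 UMIs in control and none in knockout among the 56 cells, with 87.0% of the control members' UMIs in 1 cell. Jun, an immediate early gene that also responds to tissue digestion, was at 326 and 1410 CPM, with 72.9% of its knockout UMIs in 1 cell.

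**Figure D5:**
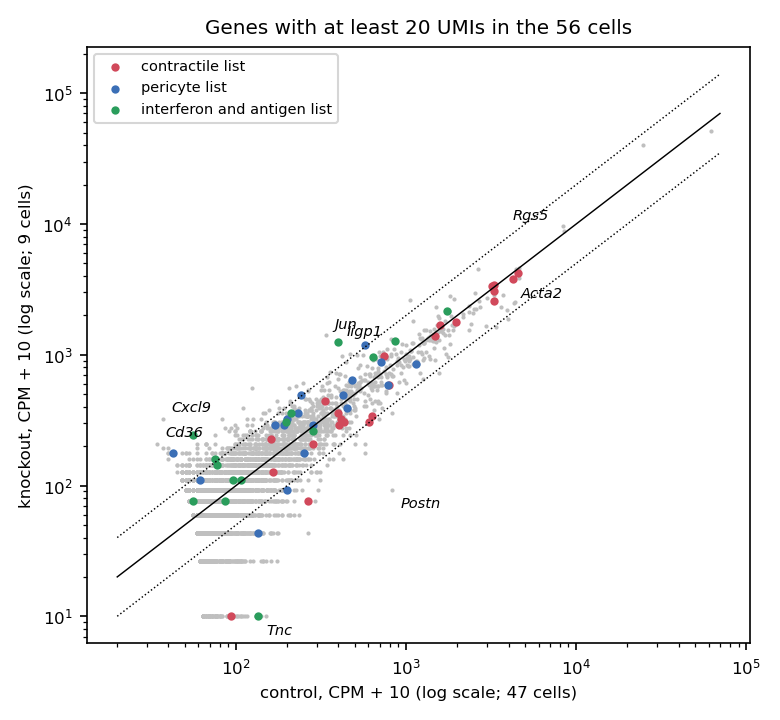
Level of each gene with at least 20 UMIs in the 56 cells, as CPM + 10 on log axes, control on the horizontal and knockout on the vertical axis, with lines at equal and at 2-fold plotted values. Most pericyte and contractile genes lie between the 2-fold lines and some lie outside them. Postn lies below the lines, at 814 CPM in control and 83.0 CPM in knockout.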

How the data were processed

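Droplet 3′ libraries (10x v3.1) of 2 tumour pools were deposited by the authors as whole-number UMI counts per gene and barcode, unnormalised, with 32285 genes. The matrix headers name Cell Ranger 8.0.0, whereas the submitters' processing notes name Cell Ranger 3.1.3 and mm10, and the difference was not settled. Summed UMIs were 173934025 in control and 137527647 in knockout. Members and reference populations were picked by raw UMI limits: fibroblasts by at least 2 Pdgfra UMIs, endothelial cells by at least 3 of Pecam1 and Cdh5, tumour cells by over 10 of the 3 keratins, and leukocytes by at least 2 Ptprc. Counts were summed per population and scaled to CPM (per 1000000 UMIs). Log2 ratios used a pseudocount of 1 UMI and genes with at least 20 UMIs over members (30 for the Acta2 order). Shares have exact Clopper-Pearson and ratios exact conditional 95% intervals, which cover counting error only. No test between genotypes was made with 1 library each, and called means at least 2-fold. Doublets were called with Scrublet in scanpy 1.11.5, expected rate 0.08, and none was removed. The ratio and interval code was tested on simulated data. Alternatives changed the marker, keratin, Pdgfra, gene and mitochondrial limits, removed doublets, weighted cells equally, changed the pseudocount or thinned cells to 2000 UMIs.

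Listed genes could be named, with the 10 highest over fibroblasts and the 8 highest and 8 lowest in knockout over control (at least 20 UMIs). One gene that the rule names and one gene list are not reported here. The same ranking within the 56 cells, the Acta2 order and the genes named from it were chosen after the values were seen. The members and lists were chosen with earlier results of these data known. Promoters came from RefSeq on GRCm38.p6. Python 3.11.15, scipy 1.17.1 and pandas 2.3.3 were used.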

Additional observations from a re-analysis of the deposited data

How the results depend on the processing

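The knockout members rested on few cells. At a marker limit of 2 UMIs they numbered 21 in place of 12. The 9 added knockout barcodes held 591 Col1a1 and 915 Dcn UMIs, with 4 Rgs5, 2 Notch3, 2 Acta2 and no Higd1b UMIs. The 3 added control barcodes held 39 Col1a1 and 76 Dcn UMIs, with 6 Rgs5 and no Notch3, Acta2 or Higd1b UMIs. The median log2 ratio of the contractile list was then 4.38 in place of 4.92 against fibroblasts. For knockout over control it was -1.18 in place of -0.44. Thinning to 2000 UMIs gave 4.10 for the contractile list against fibroblasts. Members with more Myh11 than Rgs5 UMIs were 13.1% of all, and 5.36% both where 2 of the 3 marker genes had to be present and, as an alternative added after seeing the data, without the 5 cells holding neither Rgs5 nor Notch3. Without those 5 cells the knockout over control median log2 ratio crossed 0 for the fibroblast list (0.53 to -0.82), the Wnt list (0.73 to -0.03), the matrix list (0.09 to -0.25), the rule's markers (-0.18 to 0.17), the tone receptors (-0.00072 to 0.33) and the mural transcription factors (-0.05 to 0.25); fewer genes reached 20 UMIs there, 6 in place of 12 in the Wnt list. C3, with a log2 ratio of 3.22 over all members, then had 8 control and 0 knockout UMIs. The other 123 values recomputed for these measures stayed within the limit set for them, and of the gene levels and list medians 428 did so and 111 did not. The limit was the counting interval of the main value, except for member counts and list medians. Member counts had a fixed fold limit, and list medians the median half-width of their genes' intervals. The knockout share ratio was 0.191 to 0.501 with 1 choice changed at a time, and 0.150 without the 5 cells and per fibroblast together. No paired analysis was possible because each group has 1 library. Knockout values rest on 84964 UMIs in 12 cells, so a gene at 0 there is limited to 35.3 CPM.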

Other observations

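Further gene groups of the 56 cells are given as values. Beside Rgs5, 4 of 19 other RGS-family genes had at least 20 UMIs. All 4 were at least 2-fold higher in members than in fibroblasts, against 16.6% of all genes tested. Rgs4 was at 174 CPM against 5.93, Rgs16 at 188 against 6.26 and Rgs7bp, which tethers RGS proteins to the membrane, at 209 against 13.2. Among transcription factors Ebf1 was at 2011 CPM against 1069 in fibroblasts and Zeb2 at 1584 against 582. Epas1, the hypoxia-inducible factor of vessels, was at 654 CPM against 49.4, and Nr2f2, a factor of venous identity, at 960 against 102. Klf4 was lower, at 16.2 CPM against 307.

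Hypoxia-induced glycolysis genes did not follow Epas1. Pgk1, a glycolytic kinase, was at 118 CPM in the 56 cells, 107 in fibroblasts and 1913 in tumour cells, and Ldha, lactate dehydrogenase, at 313, 237 and 1149.5 CPM. Of 5 tested genes of that list none differed 2-fold from fibroblasts, where 16.6% of all genes were at least 2-fold higher and 4.51% lower. Among chemokines Ccl11, an eosinophil attractant, was at 295 CPM against 205 in fibroblasts, while Cxcl12 was at 64.95 CPM in the 56 cells against 446.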
